A study of Mus musculus with 6 samples.

Results

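Caveolae are flask-shaped pits of the plasma membrane, and their coat is built from caveolins, which are inserted in the membrane, and from cavins, which are recruited to it from the cytosol. CAV1 oligomers and cavin 1 are both needed to form the pits outside muscle, and the ATPase EHD2 sits at their neck and holds them at the surface. Caveolae buffer membrane tension, and in the mammary gland they are known from the contractile myoepithelial cells, the endothelium and the fat.

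The caveola coat genes described here are Cav1, Cav2, Cav3, Cavin1 (named Ptrf on older lists), Cavin2 (Sdpr), Cavin3 (Prkcdbp) and Ehd2. Their probes were found by the transcript accession attached to each probe, which gave 9 probes for the 7 genes. In this way 27235 of the 55681 non-control probes on the array were matched to 20660 genes. RNA from sorted mammary cells of female C57Bl6J mice had been measured with 1-color Agilent arrays in 3 biological replicates of fetal cells at embryonic day 18.5, sorted as CD31-CD45-Ter119-EpCAM++CD49f+, and in 3 of adult basal cells from glands of 8 to 12 wk, gated as CD31-, CD45-, Ter119- and BP-1- with EpCAM+ and CD49f+. Both populations were analysed directly after sorting, with no treatment or transgene named in the labels, but the adult glands had been digested overnight and the fetal glands for a short time, so that age, gate and digestion cannot be told apart. Whether animals were pooled for a replicate is not given in the sources used here, and in such bulk samples fewer cells of a type and less RNA per cell cannot be told apart. Between 76.8% and 83.3% of all probes were well above background in the fetal samples, and between 76.4% and 82.0% in the adult basal ones. Each of the 9 caveola probes was above background by that measure on every one of the 6 arrays, and all 9 passed the filter on low signal.

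Values below are quantile-normalized log2 signals, and differences are log2 fold changes of fetal over adult basal cells, so that a negative value is a higher signal in adult basal cells. A level on this scale belongs to its probe and cannot be set against the level of another probe. A probe was called when limma's moderated test gave a Holm-adjusted p of at most 0.05 over all 20448 tested probes and the log2 fold change was at least 1 in size. The smallest p that permuting 3 and 3 samples exactly can reach is 0.10, so calls rest on the variance that limma shares between probes.

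The sequences around the annotated starts of Cavin1 and Cavin2 are shown because the signal differences of these 2 cavins had opposite signs. Each window runs 5′ to 3′ on the gene's own strand, from 250 bases before the start to 50 bases from it, in the RefSeq annotation of GRCm38.p6. The first is chr11:100970568-100970867 (minus strand) and the second is chr1:51288876-51289175 (plus strand). Capitals mark CCAAT and GGGCGG, searched on both strands.
Cavin1: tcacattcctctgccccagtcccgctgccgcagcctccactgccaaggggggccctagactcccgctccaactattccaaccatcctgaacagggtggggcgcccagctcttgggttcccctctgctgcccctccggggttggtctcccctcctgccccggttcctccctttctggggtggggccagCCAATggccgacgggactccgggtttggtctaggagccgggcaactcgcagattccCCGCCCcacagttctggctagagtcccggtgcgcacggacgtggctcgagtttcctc
Cavin2: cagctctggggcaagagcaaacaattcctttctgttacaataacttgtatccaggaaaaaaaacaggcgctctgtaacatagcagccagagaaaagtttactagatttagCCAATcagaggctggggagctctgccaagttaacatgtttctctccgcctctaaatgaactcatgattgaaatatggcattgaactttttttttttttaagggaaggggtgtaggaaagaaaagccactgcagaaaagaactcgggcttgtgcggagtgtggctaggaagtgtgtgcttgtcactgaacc
The Cavin1 window was 66.7% G and C with 17 CpG dinucleotides, and held 1 CCAAT (first base at -63, where -1 is the base before the start) and 1 GGGCGG read on the other strand as CCGCCC (at -7). The Cavin2 window was 43.3% G and C with 4 CpG dinucleotides, and held 1 CCAAT (at -140) and no GGGCGG. Over the 32851 RefSeq windows of the same 300 bases, the median was 52.7% G and C with 7 CpG dinucleotides, 37.4% held a CCAAT and 35.7% a GGGCGG. Neither window held TATAAA (13.6% of all windows), TGANTCA (7.81%) or a CArG box (1.63%), on either strand. These matches describe letters in the windows and not bound sites. The 2 windows were picked by the direction of the signal, and whether their sequence bears on it was not tested. No window was available for Cavin3.

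Of the 9 caveola probes, 3 were called, all with the higher signal in adult basal cells. They were both probes of Cavin1 and the probe of Cavin3. The dimmer Cavin1 probe and the Cav3 probe had fetal means below the low-signal limit (log2 5.95) and entered the test only through the adult basal samples, where they were higher, so their differences are a description and add no support to these counts. Of all tested probes, 5.18% were called with the higher signal in adult basal cells and 5.92% with the higher signal in fetal cells. In limma's test 0 caveola probes were called in the fetal direction, and 1, Cavin2, had an unadjusted p under 0.05 there, beside 32.4% of all tested probes, as did 7 in the adult basal direction, beside 32.3%. When p-values were instead adjusted by Benjamini-Hochberg, with the same limit on size, 4 of the 9 were called in the adult basal direction, the 3 above and Cav1, beside 14% of all tested probes, and 0 in the fetal direction, beside 16%. The 3 arrays of one population did not overlap the 3 of the other for 7 probes that were higher in adult basal cells and for 1 that was higher in fetal cells. Among all tested probes these shares were 35% and 34.1%. The median log2 fold change of the 9 probes was -0.80, beside -0.03 over all tested probes, and the median size was 0.86, beside 0.55.

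**Figure D1:**
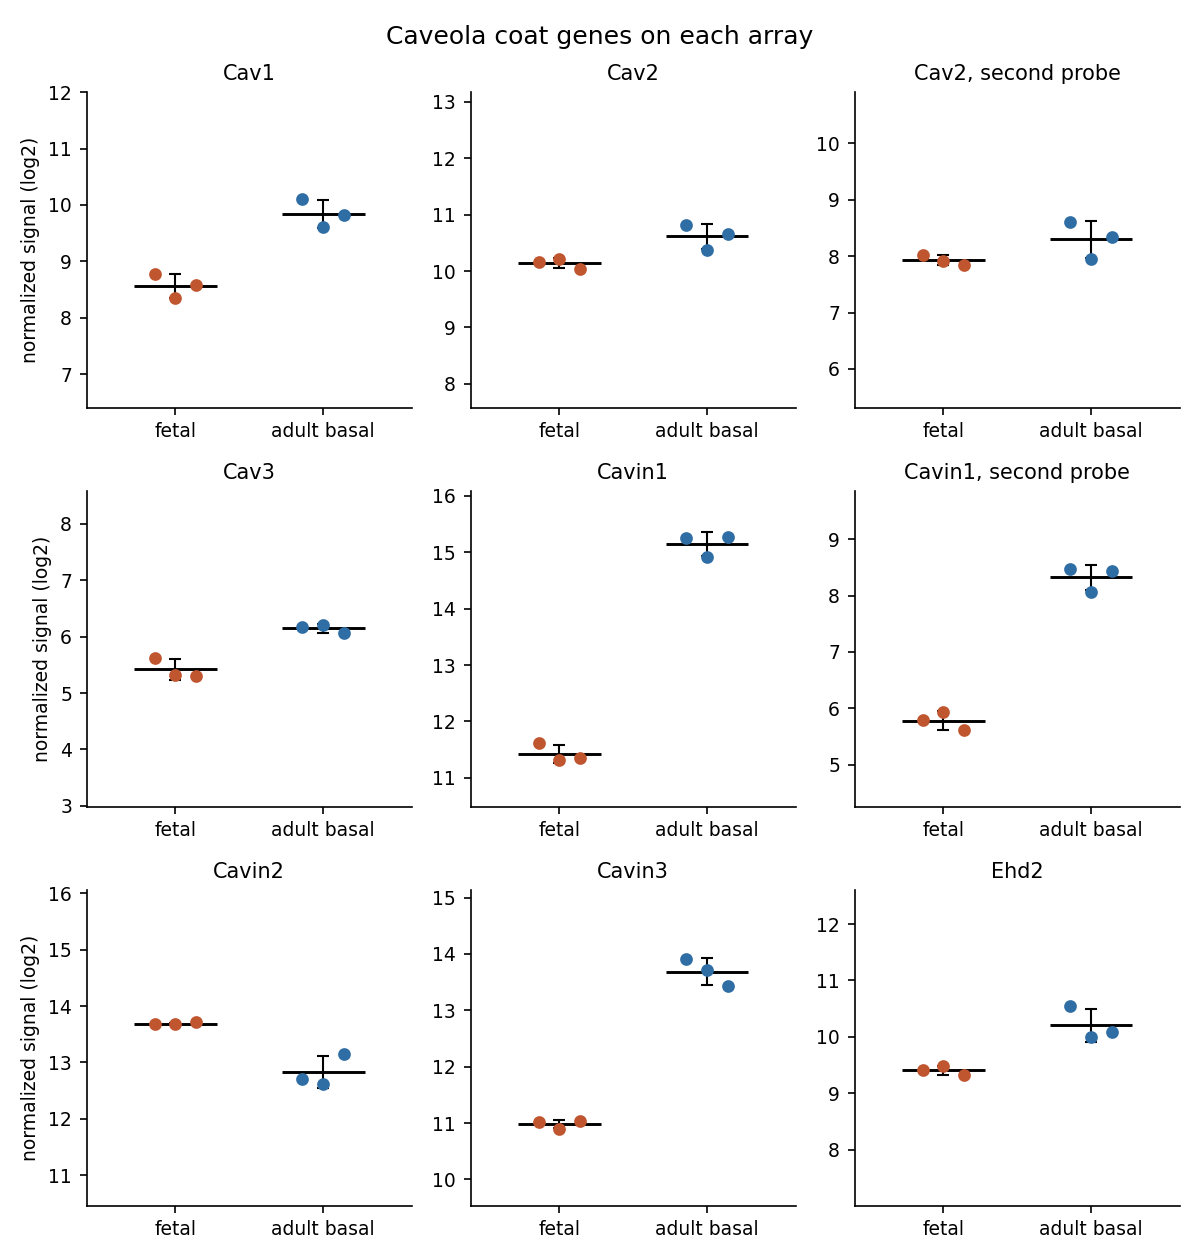
Normalized log2 signal (y axis) of each caveola probe on the 3 fetal (orange) and 3 adult basal (blue) arrays, with the mean as a bar and the SD as an error bar. Each panel spans the same number of log2 units around its own centre, so gaps can be compared between panels and levels cannot. The gap is widest for Cavin1 and Cavin3, and Cavin2 alone lies higher in fetal cells.

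Among the caveolins, Cav1, the structural caveolin of non-muscle cells, had signals of 8.77, 8.35 and 8.58 on fetal arrays 1 to 3 and of 10.10, 9.60 and 9.82 on adult basal arrays 1 to 3. All 3 adult basal arrays lay above all 3 fetal arrays. The means were 8.57 ± 0.21 and 9.84 ± 0.25 (log2, SD, n = 3 each), a log2 fold change of -1.27 (SE 0.17, 95% interval -1.67 to -0.88), or 2.42-fold more signal in adult basal cells. In limma's test the Holm-adjusted p was 1.0 and the Benjamini-Hochberg adjusted p 0.00039. Cav1 had 1 probe among those matched to a gene by accession.

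Cav2, which assembles into the coat together with CAV1 and whose gene neighbours Cav1 on mouse chromosome 6, gave 10.16, 10.22 and 10.04 in the fetal samples and 10.81, 10.38 and 10.65 in the adult basal ones with its brighter probe. The lowest adult basal array, replicate 2, lay just above the highest fetal array. The log2 fold change was -0.47 (SE 0.13, 95% interval -0.79 to -0.16), with a Holm-adjusted p of 1.0 and a Benjamini-Hochberg adjusted p of 0.017 in limma's test. The second Cav2 probe gave 8.02, 7.92 and 7.84 against 8.61, 7.95 and 8.34, and here the populations overlapped, since adult basal replicate 2 fell below fetal replicate 1. Its log2 fold change was -0.37 (SE 0.17, 95% interval -0.78 to 0.04), and it did not pass either adjustment. The brighter probe is printed in 10 spots on each array, of which 3 were marked as outliers on adult basal array 2 and left out, and the SD of log2 signal between its spots was between 0.039 and 0.108.

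Cav3, the caveolin of skeletal, cardiac and some smooth muscle, gave 5.63, 5.32 and 5.31 in the fetal samples and 6.18, 6.21 and 6.06 in the adult basal ones. The populations did not overlap, but both lay close to the low-signal limit of 5.95, and the fetal arrays below it. The log2 fold change was -0.73 (SE 0.12, 95% interval -1.02 to -0.44), and it did not pass Holm's adjustment in limma's test with or without the filter on low signal.

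Among the cavins, Cavin1 and Cavin3 had the widest differences of the 7 genes, and Cavin2 had the opposite sign. Cavin1, the core cavin that is required for the pit and that carries the other cavins to it, gave 11.61, 11.32 and 11.35 in the fetal samples and 15.26, 14.91 and 15.28 in the adult basal ones. The gap between the populations was far wider than the spread within either, with means of 11.43 ± 0.16 and 15.15 ± 0.21 (log2, SD, n = 3 each). The log2 fold change was -3.72 (SE 0.14, 95% interval -4.06 to -3.39, limma, Holm-adjusted p = 0.00045), or 13.2-fold more signal in adult basal cells. The second, dimmer Cavin1 probe gave 5.80, 5.94 and 5.61 against 8.48, 8.07 and 8.43, again with no overlap. Its log2 fold change was -2.54 (SE 0.15, limma, Holm-adjusted p = 0.0092), smaller than that of the brighter probe, and its fetal arrays lay below the low-signal limit. The call of this dimmer probe was lost under several other settings, among them a fit without the low-signal filter (limma, Holm-adjusted p = 0.081) and a normexp background correction (log2 fold change -1.67, Holm-adjusted p = 0.061), whereas the brighter probe was called under all of them.

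Cavin3, which binds cavin 1 and protein kinase C delta and links caveolae to signalling, gave 11.02, 10.90 and 11.03 in the fetal samples and 13.91, 13.72 and 13.43 in the adult basal ones. The 3 adult basal arrays spread more than the 3 fetal ones, with means of 13.69 ± 0.24 and 10.98 ± 0.07 (log2, SD, n = 3 each), and all lay above them. The log2 fold change was -2.70 (SE 0.14, 95% interval -3.04 to -2.37, limma, Holm-adjusted p = 0.0038), or 6.52-fold more signal in adult basal cells. Without fetal replicate 1, 2 or 3 the difference was -2.72, -2.66 and -2.73, but the Holm-adjusted p rose to 0.08, 0.071 and 0.058, above the limit.

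Cavin2, which binds phosphatidylserine and bends the membrane of the pit, had the opposite sign. It gave 13.68, 13.68 and 13.71 in the fetal samples and 12.71, 12.62 and 13.15 in the adult basal ones. The fetal arrays were almost the same as each other, with an SD of 0.01 beside a median SD of 0.12 over all tested probes in fetal cells, and all 3 adult basal arrays lay below them. The log2 fold change was 0.86 (SE 0.15, 95% interval 0.51 to 1.22), or 1.82-fold more signal in fetal cells, with a Holm-adjusted p of 1.0 and a Benjamini-Hochberg adjusted p of 0.0019 in limma's test. Relative to the adult basal mean, the distance from Cavin2 to Cavin1 within an array was shifted by -4.40, -4.68 and -4.68 log2 units on the 3 fetal arrays, with adult basal arrays between -0.20 and 0.23. The distance from Cavin2 to Cavin3 was shifted by -3.53, -3.64 and -3.54, with adult basal arrays between -0.59 and 0.35. These shifts show unequal change among the cavins and do not depend on how arrays are scaled to each other by a constant.

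Ehd2, the neck ATPase, gave 9.42, 9.48 and 9.32 in the fetal samples and 10.54, 9.99 and 10.08 in the adult basal ones. The adult basal arrays lay above the fetal arrays, with replicate 1 the highest. The log2 fold change was -0.80 (SE 0.16, 95% interval -1.17 to -0.43), or 1.74-fold more signal in adult basal cells, with a Holm-adjusted p of 1.0 and a Benjamini-Hochberg adjusted p of 0.0033 in limma's test.

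The arrays lay on 2 slides, each scanned on its own, with adult basal replicates 1 and 3 and fetal replicate 1 on the first and adult basal replicate 2 and fetal replicates 2 and 3 on the other. Within the first slide the log2 differences of the main probes were -1.19 for Cav1, -0.57 for Cav2, -0.49 for Cav3, -3.66 for Cavin1, 0.75 for Cavin2, -2.65 for Cavin3 and -0.89 for Ehd2. Within the second slide they were -1.13, -0.26, -0.89, -3.58, 1.08, -2.75 and -0.59 in the same order. Every main probe kept its direction within both slides, and the order of the 3 widest differences (Cavin1, Cavin3, Cav1) was the same in each. Without any scaling between arrays, the median of all tested probes shifted by 0.31 toward fetal cells, and the arrays of the 2 populations then overlapped for both probes of Cav2 and for Ehd2. Relative to that shift, the differences of these 3 probes were -0.43, -0.35 and -0.77, while those of Cavin1, Cavin3 and Cavin2 were -3.67, -2.67 and 0.89.

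**Figure D2:**
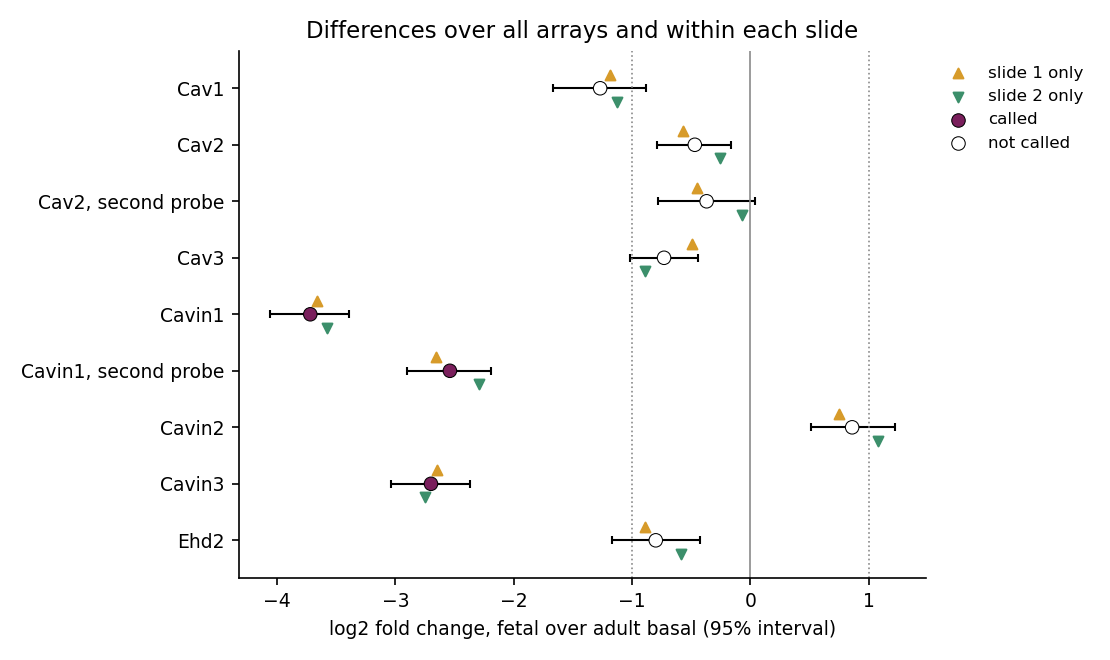
Log2 fold change of fetal over adult basal cells (x axis) for each caveola probe, with its 95% interval in limma's fit, and the difference within each of the 2 slides as triangles. Filled circles are called probes, and dotted lines mark a log2 fold change of 1 in size. The intervals of the called Cavin1 and Cavin3 probes lie beyond -2, that of Cavin2 lies above 0, and that of the second Cav2 probe includes 0.

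**Figure D3:**
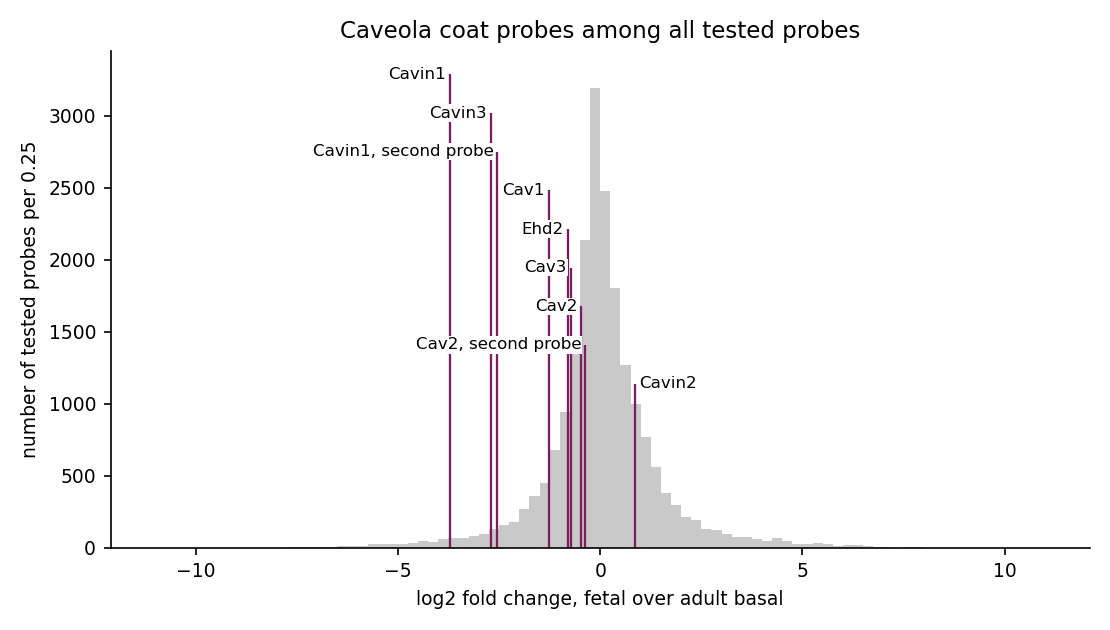
Distribution of log2 fold changes of fetal over adult basal cells (x axis) over the 20448 tested probes, as the number of probes in each bin (y axis), with the caveola probes as lines whose height has no meaning. Cavin1 at -3.72 lies in the sparse left tail, whereas Cav2, Cav3 and Ehd2 lie within the broad centre.

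Other genes of the caveola and of related coats were taken from lists of 29 genes, of which 28 were tested. Counted by the brightest probe of each gene, 1 was called, Ehd4, in the fetal direction, and 27 were not, beside 5.92% of all tested probes called in that direction and 5.18% in the other. Ehd4, a paralogue of EHD2 that works in endosomal traffic, gave 13.36, 13.34 and 13.09 in the fetal samples and 11.25, 11.16 and 11.16 in the adult basal ones, with a log2 fold change of 2.07 (SE 0.11, limma, Holm-adjusted p = 0.0049). The direction was opposite to that of Ehd2, and a second Ehd4 probe, with a log2 fold change of 2.33, was called too. No gene of these lists was called when fetal replicate 1 or 2 or adult basal replicate 1 or 3 was left out. Ehd1, another endosomal paralogue, had a log2 fold change of -1.0 (limma, Holm-adjusted p = 0.21, Benjamini-Hochberg adjusted p = 7.3e-05), and Ehd3 of 0.15 (Holm-adjusted p of 1.0).

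Among the genes that shape the caveola neck, Pacsin2, the F-BAR protein that bends the membrane there, had a log2 fold change of -0.82 and Dnm2, the GTPase that cuts the neck, of -0.64, and neither passed Holm's adjustment. The bright probe of Pacsin1, a neuronal relative of Pacsin2, differed by -0.12, whereas its second probe, which is not among the counts above, had a signal at least 5.35-fold higher in fetal cells and met the limits for a call, but it passed the low-signal filter only through the fetal samples, where it was higher. That probe gave 6.22, 6.0 and 6.38 in the fetal samples and was well above background in no adult basal one, so its fold is a bound, taken against the higher of the dim signal itself and the lowest signal well above background on each array. Pacsin3, the muscle relative, differed by -0.21. Cavin4, the muscle cavin, did not pass the filter on low signal, with 5.94, 5.91 and 5.79 in the fetal samples and 5.73, 6.42 and 5.06 in the adult basal ones, so that the populations overlapped.

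Flna, the actin crosslinker that ties caveolae to stress fibres, gave 16.50, 16.48 and 16.21 in the fetal samples and 17.51, 17.57 and 17.57 in the adult basal ones. The adult basal arrays were higher throughout, at a log2 fold change of -1.15, but the Holm-adjusted p was 0.27 in limma's test. The kinases that phosphorylate CAV1 differed by -0.53 (Src), -0.05 (Fyn) and 0.04 (Abl1), and a second, dimmer Abl1 probe differed by 0.90, with no overlap between the populations (limma, Benjamini-Hochberg adjusted p = 0.0011). Of the proteins known to reside in caveolae, Slc2a4, the insulin-responsive glucose transporter, had a log2 fold change of -1.42 (limma, Holm-adjusted p = 0.21), and Cd36, Plvap and Insr had -0.68, -0.58 and -0.44. Nos3, the endothelial nitric oxide synthase that CAV1 binds, differed by 0.17. Of the 4 anchor and kinase genes 0 were called in limma's test with Holm's adjustment and 1 (Flna) with Benjamini-Hochberg's, and of the 5 residents 0 and 1 (Slc2a4), beside 14% of all tested probes in that direction. At an unadjusted p under 0.05 there were 2 and 4 genes, all higher in adult basal cells, beside 32.3%.

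The flotillins and the clathrin coat, which form other membrane domains and pits, served as a comparison. Flot1 had a log2 fold change of -1.29 (limma, Holm-adjusted p = 0.77, Benjamini-Hochberg adjusted p = 0.00021) and Flot2 of -0.21. None of the 10 clathrin coat genes was called, and their median log2 fold change was -0.26. In limma's test 6 of them had an unadjusted p under 0.05, of which 5 were higher in adult basal cells and 1 in fetal cells, beside the shares of 32.3% and 32.4% over all tested probes, and 1 was called after Benjamini-Hochberg adjustment. This was Dab2, a clathrin adaptor, with 6.69, 6.93 and 6.67 in the fetal samples and 8.78, 8.50 and 9.13 in the adult basal ones, a log2 fold change of -2.04 (Holm-adjusted p = 0.11, Benjamini-Hochberg adjusted p = 4.4e-05 in limma's test). The clathrin heavy chain Cltc differed by -0.14, the light chains Clta and Cltb by 0.19 and -0.62, and the adaptor subunits Ap2a1, Ap2a2, Ap2b1, Ap2m1 and Ap2s1 by -0.08, -0.40, -0.22, -0.30 and 0.64. Picalm, which sets the size of clathrin pits, differed by -0.78.

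**Figure D4:**
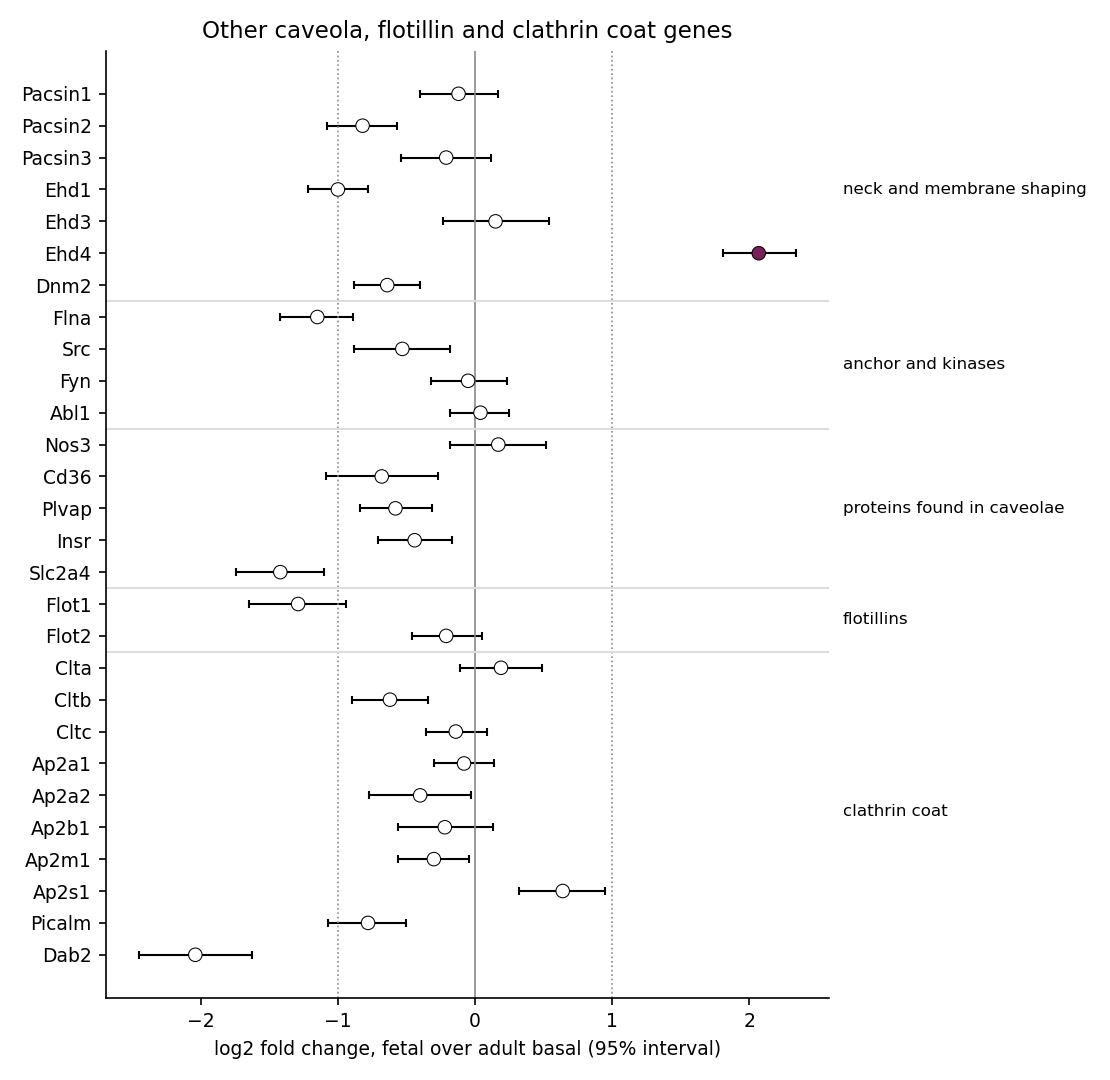
Log2 fold change of fetal over adult basal cells (x axis) with 95% intervals in limma's fit for the 28 tested genes of the caveola neck, anchor and client lists, the flotillins and the clathrin coat. Ehd4, at 2.07, is the filled circle and the only called gene of these lists, and Dab2, at -2.04, is the farthest on the adult basal side.

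The genes whose pattern over the 6 arrays was most like that of a caveola gene were found by the root mean square difference of mean-centred log2 signals. They were sought among 15257 genes that were tested and well above background on all arrays. Closest to Cav1, with differences between 0.077 and 0.111, were Mfap1b, a splicing factor gene with a near-identical copy whose signal the probe may share, Cd151, a tetraspanin that binds laminin-receptor integrins, St3gal1, a sialyltransferase, Sdc3, a syndecan, Ccdc9b, Nedd9, a focal adhesion scaffold, Pfkl, a phosphofructokinase, and Ago3, an Argonaute protein. Their log2 differences of fetal from adult basal cells lay between -1.41 and -1.13. Closest to Cavin1, with differences between 0.108 and 0.132, were Rgl1, a Ral exchange factor, Axl, a receptor tyrosine kinase, Mvp, the major vault protein, Hyou1, a chaperone of the endoplasmic reticulum, Arhgap29, Serpinb9, a granzyme B inhibitor, Apoe, a lipid carrier, and Elovl4, a fatty acid elongase. Their log2 differences lay between -3.87 and -3.60. No other caveola gene was among the closest matches of Cav1 or of Cavin1: 838 other genes were nearer to Cav1 than Ehd2 was, and 292 were nearer to Cavin1 than Cavin3 was. With 6 arrays in 2 populations this likeness mostly reflects an equal difference between the populations. Serpinb9, Ago3 and Ccdc9b had fetal means of 5.84, 5.73 and 5.16, below the low-signal limit. They entered the search only through the adult basal samples, where they were higher, so their place in it is a description.

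The labelled populations were set against cell type markers. Some of these passed the low-signal filter only through the population where they were higher, so their calls are a description: Myh11, Cdh5, Emcn, Esam, Rgs5, Pdgfrb and Lyz2 through the adult basal samples, and Elf5, Csn3 and Adipoq through the fetal ones. Of 9 basal and myoepithelial markers, 7 were called with the higher signal in adult basal cells, beside 5.18% of all tested probes. Myh11, smooth muscle myosin, gave 5.64, 6.0 and 5.53 in the fetal samples and 14.07, 14.34 and 14.64 in the adult basal ones, a log2 fold change of -8.63, and Acta2, Cnn1 and Krt5 had -4.07, -6.01 and -3.90. Krt14 was not called, with 15.25, 13.39 and 15.46 on the adult basal arrays, where replicate 2 was at the fetal level of 13.36 to 13.78. The bright Trp63 probe differed by -0.08 and was not called, while its second probe differed by -3.06 and was. Of 8 luminal markers, 5 were called with the higher signal in fetal cells, beside 5.92% of all tested probes. Among them were Elf5, the luminal progenitor factor, at 7.55, and Kit at 4.0. Csn3, also counted, was well above background in no adult basal sample, and its signal was at least 7.87-fold higher in fetal cells. Krt8 and Krt18 differed by 0.44 and 0.58 and were not called, and Krt19 had the opposite sign, at -1.22, and was called in the adult basal direction with Benjamini-Hochberg adjustment alone. The summed linear signal of the basal list was between 1035339 and 1086291 on the adult basal arrays and between 59121 and 76887 on the fetal arrays.

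Caveolae abound in endothelium, fat and stroma, so markers of these cells are given beside the caveola genes. None of the 8 tested endothelial markers was called with Holm's adjustment, and their median log2 fold change was -1.48. In limma's test 6 had an unadjusted p under 0.05, and 5 of them, Cdh5, Emcn, Esam, Cldn5 and Vwf, were called after Benjamini-Hochberg adjustment with the higher signal in adult basal cells, beside 32.3% and 14% of all tested probes. Pecam1, which encodes the CD31 used to remove endothelium in both sorts, differed by -0.14, and its populations overlapped. Tek and Tie1, which define endothelium, were not well above background in any fetal sample, whereas Tek was so in 3 and Tie1 in 2 adult basal samples, and for neither did the populations overlap. The brightest Kdr probe differed by -0.04, and Kdr's other probe, far dimmer, by -0.66. Sums of linear signal over a list are given because they show each sample, but they add probes that are not on a common scale, and the brightest probe can set them. The endothelial sum was between 11665 and 13615 in the fetal samples and between 13283 and 15422 in the adult basal ones, which overlapped. Without the bright Kdr probe, which made up most of it, the sum was between 1510 and 1787 against between 2585 and 3127, with no overlap. For fat, by the brightest probe of each gene, 0 of 8 markers were called in limma's test with either adjustment. An unadjusted p under 0.05 was found for 2 in each direction, beside 32.3% of all tested probes in the adult basal direction and 32.4% in the fetal one. Adipoq was not well above background in any adult basal sample. Adipoq varied on the fetal arrays, with 5.62, 3.99 and 8.17, where replicate 3 was the highest, and Cfd did likewise, with 6.44, 4.42 and 9.19. A second, dim Cidec probe gave 5.06, 2.35 and 7.23, again highest in replicate 3, was well above background in 2 fetal samples and no adult basal one, and met the Benjamini-Hochberg limits for a call, having passed the filter only through the fetal samples. Fabp4 gave 8.43, 8.67 and 10.43 in the fetal samples, also highest in replicate 3, and 10.26, 10.25 and 10.64 in the adult basal ones. Its log2 fold change was -1.21, and the populations overlapped. The fat sum, in which the Fabp4 probe was the brightest, was between 1531 and 3643 in the fetal samples and between 2559 and 2974 in the adult basal ones.

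Of 7 fibroblast markers 1 was called, Dcn, beside 5.18% of all tested probes called in the adult basal direction. Dcn gave 9.50, 9.54 and 9.78 in the fetal samples and 13.04, 13.39 and 13.72 in the adult basal ones. In linear signal over the 6 arrays Dcn had the brightest probe of the list, by its adult basal signal, whereas Col1a2 was brighter on each fetal array. The summed signal was between 6234 and 7865 in the fetal samples and between 17471 and 27954 in the adult basal ones. The median log2 fold change of the list was -0.90. In limma's test 6 of the 7 had an unadjusted p under 0.05, all higher in adult basal cells, and 3 were called after Benjamini-Hochberg adjustment, beside 32.3% and 14% of all tested probes. Thy1, Lum, Col1a2, Col3a1 and Pdgfra differed by -1.62, -1.05, -0.90, -0.89 and -0.37, and Col1a1 by -0.01. The BP-1 gate, which the methods use against stromal cells, was applied to the adult cells only. Without Dcn the sum was between 5510 and 6986 against between 9049 and 14460. Among 6 tested pericyte markers Pdgfrb was called with the higher signal in adult basal cells (-4.34) and Notch3 with the higher signal in fetal cells (4.70). Of all tested probes, 5.18% and 5.92% were called in these directions. Kcnj8 was well above background in no sample and Des in no fetal sample, and the summed signal, set mostly by the Mcam probe, was between 47510 and 51190 on the fetal and between 79731 and 86258 on the adult basal arrays. Without Mcam the sums lay between 6888 and 7953 on the fetal arrays, where Notch3 was then the brightest, and between 1253 and 1562 on the adult basal arrays. Rgs5 differed by -2.22 and was called after Benjamini-Hochberg adjustment, beside 14% of all tested probes in that direction. In limma's test 4 markers of the list had an unadjusted p under 0.05 in the adult basal direction, beside 32.3% of all tested probes. In the fetal direction 1 marker had, beside 32.4%. Of 4 tested skeletal muscle markers, Acta1, a sarcomeric actin, was called with the higher signal in adult basal cells (-4.68) and gave most of the summed signal, which was between 1148 and 1367 on the fetal and between 21062 and 23487 on the adult basal arrays, whereas Myf5 was well above background in no sample and Myod1 and Myog differed by -0.07 and -0.17. Without Acta1 the sum was between 419 and 464 against between 442 and 476, and the populations overlapped. None of 6 leukocyte markers was called in limma's test (1, Lyz2, had an unadjusted p under 0.05 and was called after Benjamini-Hochberg adjustment, higher in adult basal cells), Itgam had the brightest probe, and Ptprc, which encodes the CD45 used to remove leukocytes, differed by -0.31. The leukocyte sum lay between 26402 and 34601 on the fetal and between 24443 and 33806 on the adult basal arrays. Without the bright Itgam probe it lay between 12375 and 16168 and between 13782 and 15553, and Csf1r was then the brightest. That Csf1r probe differed by -0.06, and another by -0.25, both with overlap. A dimmer Csf1r probe differed by -0.66 without overlap and was not called (limma, Benjamini-Hochberg adjusted p = 0.0098). The other Itgam probes overlapped. The basal list sum, the fibroblast sum with and without Dcn, and the endothelial sum without Kdr were higher in adult basal cells. So were the full pericyte and skeletal muscle sums. The full endothelial, fat and leukocyte sums overlapped, as did the muscle sum without Acta1, and the pericyte sum without Mcam was higher in fetal cells. Cldn5 and Vwf, which passed the filter in both populations, were higher in adult basal cells, whereas the populations overlapped for Pecam1 and Kdr. Cavin1, Cavin3, Cav1 and Ehd2 were higher in adult basal cells, and Cavin2 in fetal cells. The part of these markers in the caveola differences was not tested.

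**Figure D5:**
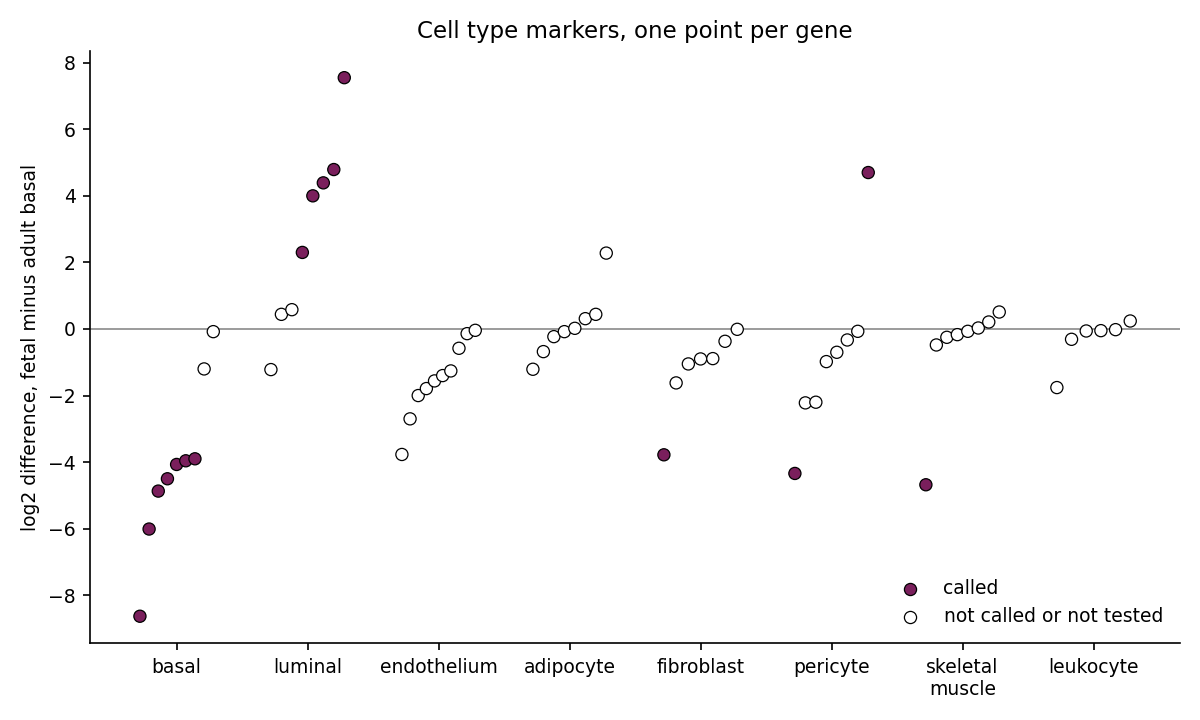
Difference in mean log2 signal of fetal minus adult basal samples (y axis) for each gene of the cell type marker lists (x axis), by its brightest probe, with filled circles for called genes and open circles for genes not called or not tested. Most basal markers lie far below 0, with Myh11 lowest at -8.63, and most luminal markers lie above it, with Elf5 highest at 7.55. The endothelial markers lie at or below 0, and the pericyte list has called genes on both sides.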

How the data were processed

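RNA of 3 fetal and 3 adult basal samples was hybridized to 1-color arrays, 1 array a sample. The deposited scanner files hold spot intensity: the authors ran Agilent's Feature Extraction (version 11.0.1.1), which subtracted background, and the processed signal is not normalized between arrays. The authors also deposited a log2 table, quantile normalized by them, which served as an alternative; each of its columns followed its own array (r between 0.971 and 0.996 of deviations from probe means). The labels and the paper's methods both name a low-input Quick Amp labelling. The methods name its exon-type WT version, and which version was used is not settled.

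Control spots and outlier spots (104 to 326 an array) were left out, spots of a probe were averaged as log2 processed signal, and arrays were quantile normalized. No spot was saturated. Groups and replicate numbers came from the sample labels. The scanner files used here give no gene names, so probes were matched by accession to a RefSeq gene table of GRCm38.p6 (27235 of 55681 probes, 48.9%). Probes below the boundary between the lowest 2 of 3 k-means clusters, log2 5.95, in both populations (log2 of the mean linear signal) were removed, and 20448 were tested by lmFit and eBayes (limma 3.58.1, R 4.3.3) with Holm adjustment; the fit was tested on simulated data. The main probe of a gene was its brightest. Python 3.11.15, pandas 2.3.3, numpy 2.4.6 and matplotlib 3.10.9 were used for tables and plots. The 3 arrays of each population limit the precision.

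The genes, lists and tests were chosen with earlier results of these data known. Named are all 7 caveola coat genes with every probe, the genes of the context and marker lists, and the 8 genes most like Cav1 and the 8 most like Cavin1. Alternatives were the 75th percentile, the deposited values, normexp (offset 50, run on the median spot intensity), an offset of 16 before log2, the filter (none, or well above background), all probes, the mean of a gene's probes, Benjamini-Hochberg adjustment, eBayes with trend and robust estimation, replicate number or slide as a block, and each array left out. No scaling between arrays was added after the data were seen.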

Additional observations from a re-analysis of the deposited data

How the results depend on the processing

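All 7 main caveola probes kept their direction under every alternative in which they could be tested. Cavin1 was called in each, with a log2 fold change between -3.84 and -3.36 for its main probe and of -3.13 for the mean of its probes. Cav3 did not pass the low-signal filter after normexp or an offset of 16 and has no value there. The number of called caveola probes, 3, was 1 to 3 when an array was left out, at 1 without fetal replicate 1, 2 or 3, and 2 to 4 otherwise. Leaving out an array gave Cavin3 between -2.83 and -2.59 (limma, Holm-adjusted p between 0.0052 and 0.08). Cav1, at -1.27, was called with Benjamini-Hochberg adjustment. The second Cavin1 probe was also not called without the low-signal filter (limma, Holm-adjusted p = 0.081), without scaling between arrays (0.13) and without any array but adult basal replicate 2 (0.08 to 0.17). Of the other coat genes, 1 was called in the report, 2 after normexp or the offset, 6 with Benjamini-Hochberg adjustment, 5 with trend and robust estimation, and 0 to 2 when an array was left out. Same-numbered samples correlated at -0.032, 0.093 and 0.049 in their deviations from the population means, and the other pairs between -0.13 and 0.12. These values show no sign of pairing by number, but with 3 samples a population they cannot exclude it. With replicate number as a block, 0 of the other coat genes and 1302 of all probes were called, against 2270, and the second Cavin1 probe was not called (limma, Holm-adjusted p = 0.12). All probes called numbered 1182 without the low-signal filter, 1541 with slide as a block, 6133 with Benjamini-Hochberg adjustment and 952 to 2014 with an array left out. The causes of these changes were not tested. Low signal limits what can be said of Cav3 and Cavin4.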
